A study of Homo sapiens with 6 samples.

Results

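The genes described here are 10 markers and drivers of the epithelial-mesenchymal transition, chosen by name from a table of 58243 genes: the cadherin genes CDH1 and CDH2, the intermediate filament gene VIM, the matrix genes FN1 and TNC, the ligand gene TGFB2, and the transcription factor genes SNAI1, SNAI2, ZEB1 and TWIST1. Their mRNA was sequenced in CAL27, an epithelial line established from a human squamous carcinoma of the tongue. There were 3 libraries of CAL27 cells given 30 mM metformin for 48 h and 3 libraries of cells given the phosphate-buffered saline (PBS) vehicle for 48 h. All came from this single line, grown in medium with serum, and metformin was tested at a single dose. Whether each library had a culture of its own is not stated in the labels, so p-values below reflect only how far these libraries spread, and that spread may be technical.

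In the epithelial-mesenchymal transition, cells held together by E-cadherin loosen their junctions and take on properties of mesenchymal cells, among them N-cadherin at the surface, vimentin filaments and a matrix rich in fibronectin. TGF-beta is the classical signal for the switch. Transcription factors of the SNAIL, ZEB and TWIST families carry it out by binding E-boxes in the promoters of epithelial genes, CDH1 foremost. Carcinomas of the head and neck are known for partial forms, in which epithelial genes stay on while matrix and adhesion genes are switched on at the invasive edge. In that partial form vimentin and TGF-beta-induced genes are often found together with SNAI2, and with little ZEB1 or TWIST1.

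Levels are given in FPKM, a fragment count divided by transcript length and by the mapped total of the library, which allows levels of different genes to be compared. Changes are differences of log2(FPKM + 1), metformin minus PBS, with a standard error (SE), and were tested with limma over the 13437 genes that averaged at least 1 FPKM. P-values were adjusted by Benjamini and Hochberg over all of these genes, and a gene was called at an adjusted p below 0.05. The libraries held an estimated 7810000 to 8820000 counted fragments, and 12982 to 13613 genes reached 1 FPKM in each. Pearson correlations of log2 values were 0.974 to 0.979 between libraries of the same group and 0.881 to 0.888 between groups. Markers of squamous cells were present, with all 12 of the markers examined above the level filter. Of 10 fibroblast markers only COL1A1 reached the filter, and PDGFRA, DCN, FAP and POSTN were listed at 0 in every library.

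The response of the 10 genes to metformin was led by TNC and TGFB2, which rose 3.12-fold and 4.76-fold. CDH1 and SNAI2 rose by less than 1.2-fold, FN1 fell, and CDH2 and TWIST1 did not pass the test. VIM, ZEB1 and SNAI1 averaged below 1 FPKM and were not tested in this fit. Of the 7 members tested, 4 were called higher and 1 lower, 71.4% in all. Across all 13437 tested genes 56.2% were called, 31.0% higher and 25.2% lower, so a call by itself sets no member apart from an average gene. No list of related genes below was tested against this background, so none of their shares is a difference shown. What differs among the members is the size of the change. Of all tested genes, 0.752% rose at least as far as TGFB2 and 1.99% at least as far as TNC, against 36.3% for CDH1 and 36.7% for SNAI2. In FN1 the fall was matched or exceeded by 25.0% of tested genes. The groups did not overlap in 4 of the 7 tested members, beside 64.4% of all tested genes. TNC, TGFB2 and CDH1 lay wholly above the PBS libraries, as did 35.7% of tested genes, and FN1 wholly below them, as did 28.7%.

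**Figure D1:**
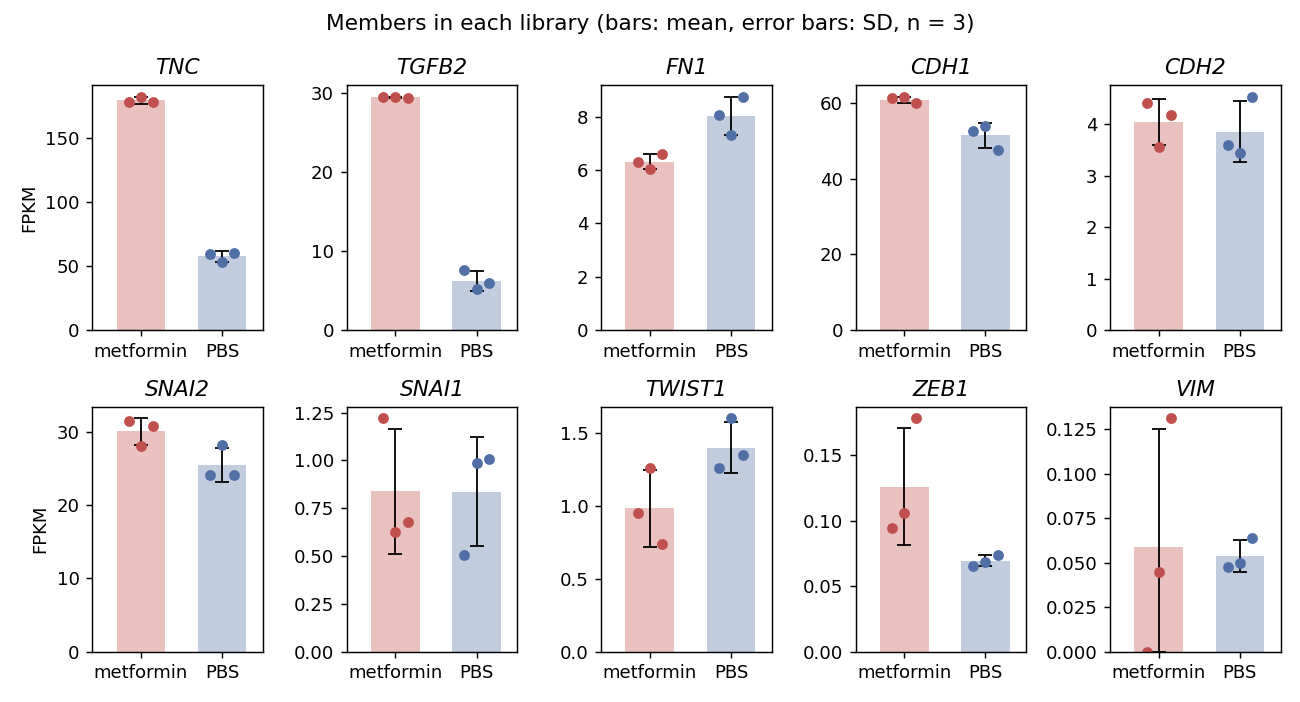
FPKM of each of the 10 genes in the metformin and PBS libraries (points), with the mean of 3 libraries as a bar and the SD as an error bar, cut off at 0. The axes differ between panels and start at 0. TNC and TGFB2 stand apart by group, while VIM and ZEB1 stay below 0.2 FPKM in every library.

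TNC (ENSG00000041982.15, chromosome 9, 115019578 to 115118257 in GRCh38, minus strand) encodes tenascin-C, a large matrix glycoprotein that is rare in resting epithelium and laid down in wounds and at tumour margins. It had 178, 182 and 178 FPKM in the metformin libraries and 59.3, 52.8 and 60.2 FPKM in the PBS libraries. All metformin libraries lay above all PBS libraries, and by mean TNC had the highest level of the 10 genes in both groups. The mean was 179 ± 2.65 FPKM with metformin and 57.4 ± 4.04 FPKM with PBS (SD, n = 3 each), or 1.63 on the log2 scale (SE 0.06, adjusted p = 4.32e-06 by limma).

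TGFB2 (ENSG00000092969.11, chromosome 1, 218346235 to 218444619, plus strand) encodes a secreted TGF-beta ligand that needs the co-receptor betaglycan to bind its type II receptor well. It had 29.6, 29.6 and 29.4 FPKM with metformin and 7.55, 5.13 and 5.92 FPKM with PBS. The metformin libraries were nearly identical and lay far above the PBS libraries. The mean was 29.5 ± 0.0815 FPKM with metformin and 6.20 ± 1.24 FPKM with PBS (SD, n = 3 each), or 2.10 on the log2 scale (SE 0.12, adjusted p = 2.35e-05 by limma). The exons of TGFB2 overlap by 1371 bases, on the same strand, with those of TGFB2-OT1, a transcript from its 3′ end, which averaged 0.363 FPKM with metformin and 2.98 FPKM with PBS. Fragments of the shared bases cannot be told apart, so part of the levels may be exchanged between these genes.

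FN1 (ENSG00000115414.18, chromosome 2, 215360440 to 215436172, minus strand) encodes fibronectin, the matrix protein most often used as a mesenchymal marker. It had 6.30, 6.06 and 6.60 FPKM with metformin and 8.06, 7.33 and 8.76 FPKM with PBS. Every metformin library was below every PBS library, though by a small margin. The mean was 6.32 ± 0.272 FPKM with metformin and 8.05 ± 0.716 FPKM with PBS (SD, n = 3 each), 1.27-fold lower (log2 change -0.30, SE 0.08, limma adjusted p = 0.0159). The call was lost without metformin replicate 2, where the adjusted p was 0.0508. The TNC level was 28.2, 30.1 and 26.9 times the FN1 level in the metformin libraries, against 7.36, 7.21 and 6.88 times in the PBS libraries. The balance of these matrix transcripts thus lay further toward tenascin-C in each metformin library.

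The promoters of TNC, TGFB2 and FN1 are printed because these are the members with a ligand or matrix product that were called, 2 higher and 1 lower. The 250 bases before the RefSeq start of each gene are given 5′ to 3′ on the gene's own strand, from RefSeq on GRCh38.p14, and lie at chr9:115118158-115118407 (minus), chr1:218345086-218345335 (plus) and chr2:215436069-215436318 (minus). Capitals mark TATAA on the coding strand 40 to 20 bases before the start and, in FN1, the cyclic AMP response element TGACGTCA, a motif bound by factors of the ATF and CREB families.
TNC: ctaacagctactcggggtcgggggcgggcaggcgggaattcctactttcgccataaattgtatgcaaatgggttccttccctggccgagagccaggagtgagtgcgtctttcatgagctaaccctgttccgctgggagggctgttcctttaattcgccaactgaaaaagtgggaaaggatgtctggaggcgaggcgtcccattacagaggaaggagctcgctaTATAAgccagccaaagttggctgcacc
TGFB2: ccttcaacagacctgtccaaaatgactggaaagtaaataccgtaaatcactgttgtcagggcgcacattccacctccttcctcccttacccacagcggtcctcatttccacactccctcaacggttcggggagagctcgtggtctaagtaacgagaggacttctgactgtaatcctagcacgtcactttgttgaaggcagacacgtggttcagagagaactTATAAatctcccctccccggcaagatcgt
FN1: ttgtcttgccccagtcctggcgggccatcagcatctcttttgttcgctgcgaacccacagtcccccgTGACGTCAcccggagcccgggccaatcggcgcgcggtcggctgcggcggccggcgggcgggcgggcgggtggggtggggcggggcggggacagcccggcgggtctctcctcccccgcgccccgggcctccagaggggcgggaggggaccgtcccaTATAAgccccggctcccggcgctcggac
TATAA began 27, 29 and 28 bases before the start in TNC, TGFB2 and FN1, a placing found in 3.91% of 34943 promoters of this length. Counted anywhere in the window and on both strands, TATAA was found in 19.0% of promoters. TGACGTCA, searched on both strands, began 183 bases before the FN1 start and had no match in the TNC and TGFB2 windows, against 1.63% of all promoters. The AP-1 motif TGANTCA (6.59% of promoters) and the E-box CAGGTG (17.5%), each searched on both strands, had no match in the TNC, TGFB2 and FN1 windows. CAGACA, which holds the CAGA core bound by SMAD3, was found in 13.6% of promoters on either strand. It began 71 bases before the start of TNC on the minus strand of the window and 53 bases before that of TGFB2 on the plus strand. FN1 had no match. CDH2, which was not called, held CAGACA before its RefSeq start at 28036641 but not before that at 28177130. TATAA on the coding strand also began 32 bases before the CDH2 start at 28036641. ZEB1, which was not tested, held CAGACA before its RefSeq start at 31320554. TGANTCA was found before the CDH2 start at 28036641, and CAGGTG before the ZEB1 starts at 31318417 and 31319216. The motifs were chosen with the sequences in view. Only the letters given were searched, so variant forms of these sites, in any of the windows, were not counted. The TATA motif was thus shared by members that moved in opposite directions. FN1 had the highest GC content of the 3 windows, 76.4%, against 54.8% in TNC, 50.4% in TGFB2 and a median of 58.0% over all promoters. The RefSeq start of TGFB2 lies upstream of the start in GENCODE release 29.

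CDH1 (ENSG00000039068.18, chromosome 16, 68737225 to 68835548, plus strand) encodes E-cadherin, the adhesion molecule of epithelial junctions whose loss defines the transition. It had 61.3, 61.6 and 60.1 FPKM with metformin and 52.7, 54.0 and 47.6 FPKM with PBS. The level was high in every library, and each metformin library was above each PBS library. The mean was 61.0 ± 0.798 FPKM with metformin and 51.5 ± 3.37 FPKM with PBS (SD, n = 3 each), 1.19-fold higher (log2 change 0.24, SE 0.06, limma adjusted p = 0.0111). CDH1 shares 347 exon bases with the opposite-strand gene AC099314.1, which averaged 12.3 FPKM with metformin and 11.6 FPKM with PBS. Without strand information, which the sources used here do not give, fragments of these bases cannot be assigned.

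CDH2 (ENSG00000170558.8, chromosome 18, 27950966 to 28177446, minus strand) encodes N-cadherin, which replaces E-cadherin in the textbook cadherin switch. It had 4.41, 3.55 and 4.19 FPKM with metformin and 3.60, 3.44 and 4.54 FPKM with PBS. The groups overlapped, with means of 4.05 ± 0.450 FPKM with metformin and 3.86 ± 0.596 FPKM with PBS (SD, n = 3 each), and the change of 0.06 (SE 0.12) did not pass the test (limma adjusted p = 0.682). The sign of this change was turned by leaving out PBS replicate 2 (-0.0021) and by quantile scaling (-0.03), so it has no settled direction. CDH1 stood at 13.9, 17.4 and 14.3 times the level of CDH2 in the metformin libraries and at 14.7, 15.7 and 10.5 times in the PBS libraries. These ratios overlapped between the groups.

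CDH3, which encodes P-cadherin of basal epithelial cells, was the other abundant classical cadherin examined and fell to 31.2 ± 0.572 FPKM with metformin, against 43.4 ± 4.16 FPKM with PBS (log2 change -0.46, limma adjusted p = 0.00193). Of the summed CDH1, CDH2 and CDH3 levels, CDH1 made up 63.1% to 63.5% with metformin and 51.2% to 53.6% with PBS. CDH2 made up 3.66% to 4.57% with metformin and 3.25% to 4.92% with PBS and overlapped between the groups. CTNNB1, beta-catenin, which links cadherins to the cytoskeleton and also signals in the Wnt pathway, fell 1.24-fold (log2 change -0.29, limma adjusted p = 0.00388).

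VIM (ENSG00000026025.15, chromosome 10, 17228259 to 17237593, plus strand) encodes vimentin, the intermediate filament of mesenchymal cells. It was listed at 0, 0.0445 and 0.131 FPKM with metformin and at 0.0475, 0.0496 and 0.0638 FPKM with PBS. On its principal transcript of 2135 bases these values correspond to about 0, 0.8 and 2.4 fragments with metformin and 0.8, 0.8 and 1.2 fragments with PBS. Vimentin mRNA was therefore at the limit of what these libraries can count in both groups, and a change in it was not detectable at this depth. An exact permutation test of the groups gave p = 1.0 (two-sided, 3 against 3 libraries, where the smallest possible p is 0.1).

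SNAI2 (ENSG00000019549.9, chromosome 8, 48917604 to 48921740, minus strand) encodes SLUG, a repressor of CDH1 that is also expressed in basal keratinocytes and in squamous carcinomas. It had 31.5, 28.1 and 30.9 FPKM with metformin and 24.2, 28.2 and 24.1 FPKM with PBS. The groups touched, since metformin replicate 2 was just below PBS replicate 2. The mean was 30.1 ± 1.79 FPKM with metformin and 25.5 ± 2.33 FPKM with PBS (SD, n = 3 each), 1.18-fold higher (log2 change 0.24, SE 0.08, limma adjusted p = 0.0413). The call lay close to the threshold and was lost in 9 of the 17 alternatives tried. Among these were median-of-ratios scaling (adjusted p = 0.107), a filter of 0.1 FPKM (0.0529), no filter (0.0778), limma without its trend (0.0597), and the fits without metformin replicate 1 (0.119), metformin replicate 3 (0.107), PBS replicate 1 (0.117) or PBS replicate 3 (0.115). SNAI2 was the most abundant of the 4 transition factors in every library, by more than 10-fold.

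The other 3 transition factors were scarce. TWIST1 (ENSG00000122691.12, chromosome 7, 19020991 to 19117672, minus strand), a helix-loop-helix factor of mesoderm, had 0.950, 1.26 and 0.737 FPKM with metformin and 1.26, 1.60 and 1.35 FPKM with PBS. The groups met at 1.26 FPKM, and the change of -0.28 (SE 0.13) did not pass (limma adjusted p = 0.112), although with quantile scaling it was -0.41 and was called (adjusted p = 0.0366). SNAI1 (ENSG00000124216.3, chromosome 20, 49982999 to 49988886, plus strand), the founding SNAIL repressor of CDH1, had 1.22, 0.626 and 0.676 FPKM with metformin and 0.507, 0.986 and 1.01 FPKM with PBS. Its values were spread equally widely in both groups and overlapped, with means of 0.839 ± 0.327 FPKM with metformin and 0.835 ± 0.285 FPKM with PBS (SD, n = 3 each; exact permutation p = 1.0).

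ZEB1 (ENSG00000148516.21, chromosome 10, 31318495 to 31529814, plus strand) encodes a zinc finger repressor of CDH1 and of the miR-200 genes. It had 0.0947, 0.106 and 0.178 FPKM with metformin and 0.0656, 0.0685 and 0.0738 FPKM with PBS. All metformin libraries were above all PBS libraries, but on its principal transcript of 5423 bases the values correspond to about 4.1, 4.9 and 8.2 fragments with metformin and 2.9, 2.9 and 3.5 fragments with PBS. The exact permutation test gave p = 0.1, the smallest that 3 against 3 libraries allow, and in the fit without a level filter ZEB1 was not called (log2 change 0.07, limma adjusted p = 0.249). Its paralog ZEB2 was as scarce, at 0.0515, 0.0628 and 0.120 FPKM with metformin and 0.0294, 0.0327 and 0.0272 FPKM with PBS. SNAI3 reached at most 0.818 FPKM in the metformin libraries and 0.447 FPKM in the PBS libraries, and TWIST2 was listed at 0 in every library.

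In the order of levels with metformin, TNC at 179 FPKM and CDH1 at 61.0 FPKM were followed by SNAI2 at 30.1 and TGFB2 at 29.5 FPKM, whose ranges overlapped. In the PBS libraries TNC at 57.4 and CDH1 at 51.5 FPKM overlapped in range, SNAI2 followed at 25.5 FPKM, and FN1 at 8.05 and TGFB2 at 6.20 FPKM overlapped. TGFB2 stood above FN1 by mean in the metformin libraries and below it in the PBS libraries. Below these, CDH2, TWIST1, SNAI1, ZEB1 and VIM followed in this order by mean in both groups.

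**Figure D2:**
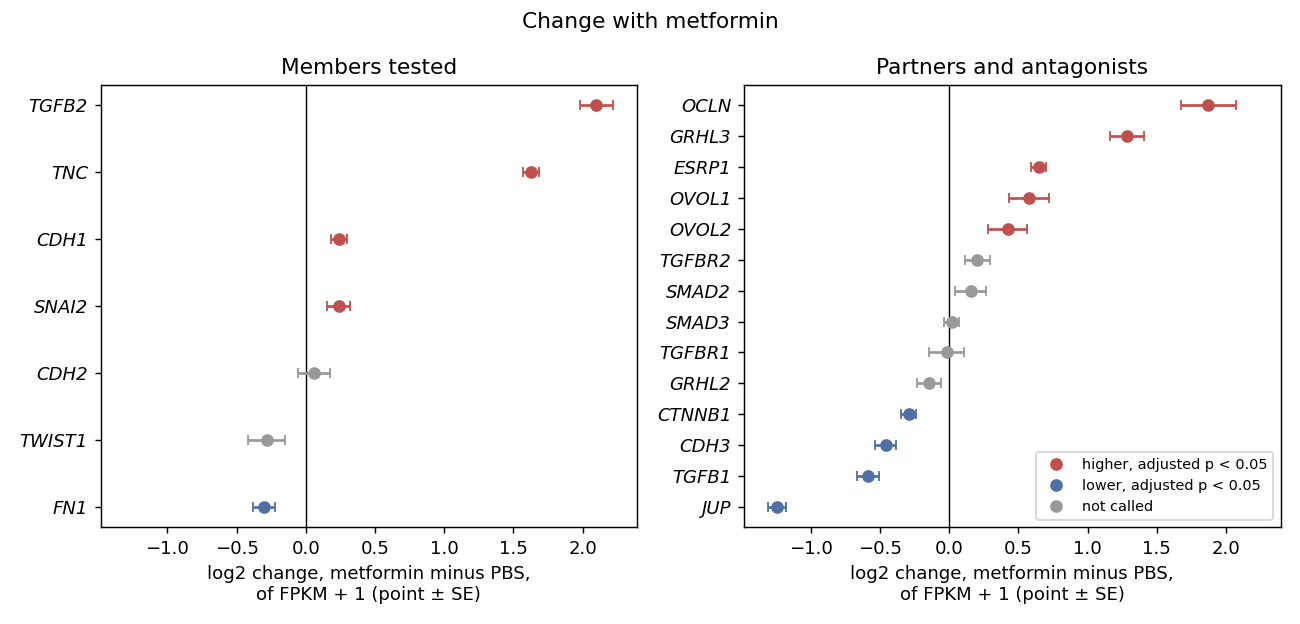
Log2 changes (metformin minus PBS, on FPKM + 1) with the SE for the 7 tested members (left) and for 14 partners and antagonists (right). Red points were called higher, blue points lower, and grey points were not called at a limma adjusted p below 0.05. TGFB2 at 2.10 and TNC at 1.63 are the furthest of the members from 0.

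A shift among the TGF-beta ligands accompanied TGFB2. TGFB1, the most widely expressed ligand of the family, fell to 4.53 ± 0.317 FPKM with metformin, against 7.30 ± 0.566 FPKM with PBS (SD, n = 3 each; log2 change -0.59, SE 0.08, limma adjusted p = 0.00107). It shares 215 exon bases with the opposite-strand gene HNRNPUL1, which averaged 36.2 FPKM with metformin and 58.5 FPKM with PBS and so moved the same way. TGFB3 stayed at or below 0.298 FPKM with metformin and 0.407 FPKM with PBS. Of the summed levels of the 3 ligand genes, TGFB2 made up 85.6%, 87.2% and 85.9% in the metformin libraries and 49.5%, 38.6% and 45.4% in the PBS libraries. The sum itself was 33.9 to 34.6 FPKM with metformin and at most 15.3 FPKM with PBS.

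The receptor genes TGFBR1 and TGFBR2 and the signal carrier genes SMAD2, SMAD3 and SMAD4 moved less. Among receptors and SMADs of the wider family, ACVR1B rose 2.23-fold (limma adjusted p = 0.013). ACVR1, BMPR2, SMAD1, SMAD5 and SMAD7 were also called higher, as were 31.0% of all tested genes, and BMPR1A was not called. No tested receptor or SMAD gene was called lower. Below the level filter and not tested, SMAD6 averaged 0.166 FPKM with metformin and 0.417 FPKM with PBS. The receptor gene ENG, also below the filter, averaged 0.476 FPKM with metformin and 0.278 FPKM with PBS. TGFBR2, the type II receptor that binds the ligand, had 14.6 ± 0.889 FPKM with metformin and 12.6 ± 1.33 FPKM with PBS (limma adjusted p = 0.0852), a change that was called without PBS replicate 3 (adjusted p = 0.0247). TGFBR1, the type I receptor kinase, had 4.34 ± 0.780 FPKM with metformin and 4.38 ± 0.442 FPKM with PBS (limma adjusted p = 0.918), and SMAD3, which carries the signal to the nucleus, 28.3 ± 0.422 FPKM with metformin and 28.0 ± 1.32 FPKM with PBS (limma adjusted p = 0.798). The signs of these changes were not settled, as TGFBR1 turned under rescaling to a fixed sum and SMAD3 under median-of-ratios scaling. SMAD2 averaged 1.19 FPKM with metformin and 0.971 FPKM with PBS without a call (limma adjusted p = 0.279). SMAD4, the shared partner, averaged 1.02 FPKM with metformin and 0.769 FPKM with PBS, below the level filter. TGFBR3, which encodes the co-receptor betaglycan, was scarce, at 0.13 FPKM with metformin and 0.124 FPKM with PBS by mean, and was not tested.

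Of 39 other genes for TGF-beta family ligands, latency proteins, receptors and SMAD regulators, 29 were tested, of which 16 were called higher and 4 lower (69.0%, against 56.2% of all tested genes), and the median log2 change was 0.35 beside 0.06 for all tested genes. The largest changes in this list belonged to INHBB, a subunit of activin B, and to genes that restrain the pathway. INHBB rose 5.98-fold, to 8.39 ± 1.02 FPKM with metformin against 1.40 ± 0.218 FPKM with PBS. PMEPA1, which traps receptor SMADs, rose 3.79-fold, TGIF1, a SMAD co-repressor, 3.52-fold, and SKIL, another SMAD co-repressor, 3.15-fold (limma adjusted p = 8.82e-06, 7.02e-05 and 0.000752). The list also holds TGFA, counted among the higher genes, which despite its name is a ligand of the epidermal growth factor receptor.

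Genes known to be induced by TGF-beta did not move one way. Of 25 listed, 23 were tested, 8 called higher and 8 lower (69.6%, against 56.2% of all tested genes). The median of their log2 changes was 0.07. The cell cycle inhibitor gene CDKN2B rose 7.96-fold, to 23.7 ± 1.19 FPKM against 2.97 ± 0.252 FPKM with PBS, and CDKN1A, a target of p53 as well, 5.96-fold. ID1, an inhibitor of helix-loop-helix factors that BMP signals induce and TGF-beta can raise or lower, fell 3.30-fold, to 37.5 ± 3.04 FPKM with metformin against 124 ± 14.0 FPKM with PBS. PMEPA1 and SKIL stand in both of these lists.

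**Figure D3:**
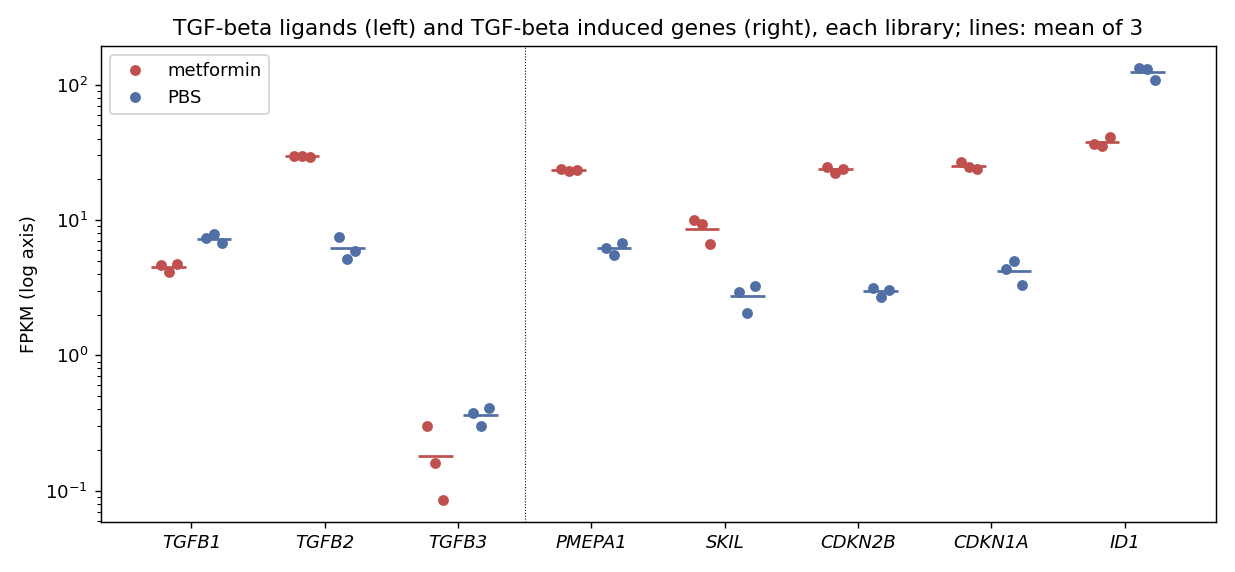
FPKM on a log axis of the 3 TGF-beta ligand genes (left of the dotted line) and of 5 TGF-beta induced genes (right), with a point per library and a line at each mean of 3. TGFB2 lies between 29.4 and 29.6 FPKM in the metformin libraries and below 8 FPKM in the PBS libraries, while TGFB1 and ID1 are lower with metformin.

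The epithelial side of the transition was read from lists chosen for known function. Of 25 genes of junctions and polarity, all were tested, and 12 were called higher and 7 lower (76.0%, against 56.2% of all tested genes); their median log2 change was 0.34. OCLN, the tight junction protein occludin and a known target of SNAIL repression, rose to 8.70 ± 0.657 FPKM with metformin, against 1.71 ± 0.705 FPKM with PBS (5.09-fold, limma adjusted p = 0.00029). JUP, plakoglobin, which serves adherens junctions and desmosomes, fell to 38.6 ± 2.03 FPKM with metformin, against 92.5 ± 5.83 FPKM with PBS (limma adjusted p = 1.74e-05). The tight junction scaffold genes TJP3 and CGN fell 3.94-fold and 2.45-fold. Junction genes other than CDH1 thus changed in both directions.

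Among 17 epithelial regulators of transcription and splicing, 14 were tested, 8 called higher and 1 lower (64.3%, against 56.2% of all tested genes). Their median change was 0.39 on the log2 scale. The lower call was that of TP63, which stands among the squamous markers as well. It averaged 13.1 ± 0.426 FPKM with metformin and 17.5 ± 1.23 FPKM with PBS (limma adjusted p = 0.00286). ESRP1, which directs epithelial splice forms, rose to 37.2 ± 0.189 FPKM with metformin, against 23.4 ± 1.40 FPKM with PBS (1.59-fold, limma adjusted p = 0.000138). GRHL3, a grainyhead factor of epidermal differentiation, rose 5.46-fold, to 2.56 ± 0.172 FPKM against 0.469 ± 0.182 FPKM with PBS, whereas GRHL2, the family member best known for holding CDH1 on, had 12.8 ± 0.968 FPKM with metformin and 14.3 ± 1.25 FPKM with PBS (limma adjusted p = 0.197). OVOL1, a repressor of ZEB1, rose 1.72-fold (limma adjusted p = 0.0123), and shares 1044 exon bases with the opposite-strand gene AP001266.1, which averaged 4.12 FPKM with metformin and 2.10 FPKM with PBS. OVOL2 averaged 2.46 FPKM with metformin and 1.57 FPKM with PBS, and its call (limma adjusted p = 0.0410) was lost without metformin replicate 1 (0.105), metformin replicate 2 (0.0575), PBS replicate 1 (0.0873) or PBS replicate 2 (0.115), and with median-of-ratios (0.0559) or quantile scaling (0.133). KLF4, a factor of epithelial differentiation, had 23.7, 8.52 and 21.8 FPKM with metformin and 7.23, 6.89 and 6.31 FPKM with PBS, so metformin replicate 2 lay near the PBS libraries. Its call (limma adjusted p = 0.0257) was lost in every fit that left out a library other than metformin replicate 2, with adjusted p up to 0.0794.

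MIR200CHG, the host transcript of miR-200c and miR-141, the microRNAs that repress ZEB1 and ZEB2, was among the called regulators. It had 4.55, 4.41 and 3.92 FPKM with metformin, and in the PBS libraries 1.38 FPKM in replicate 1 and a listed 0 in replicates 2 and 3 (log2 change 1.98, SE 0.34, limma adjusted p = 0.00244). The mature sequences are shown because they tie this locus to ZEB1, the scarce member above. The RefSeq sequences on GRCh38.p14, both from chromosome 12 at 6963742 to 6963764 and 6964155 to 6964176 on the plus strand, carry their seed, bases 2 to 8, in capitals.
miR-200c-3p: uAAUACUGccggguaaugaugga
miR-141-3p: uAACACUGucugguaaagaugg
The seeds are AAUACUG and AACACUG, and differ by the substitution U4C counted from the 5′ end of miR-200c-3p. Levels of the mature microRNAs were not measured.

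Of 20 other transition factors listed, 11 were tested, 3 called higher and 1 lower (36.4%, against 56.2% of all tested genes), and TWIST2, PRRX1, GSC, KLF8 and TBXT were listed at 0 in every library. SOX9, a factor of progenitor cells and cartilage, rose 4.61-fold, to 12.7 ± 0.789 FPKM with metformin against 2.74 ± 0.532 FPKM with PBS (limma adjusted p = 3.32e-05). ETS1 rose 1.81-fold and YAP1, the Hippo pathway co-activator, 1.30-fold. YAP1 shares 628 exon bases with the opposite-strand gene AP000942.2, which averaged 46.9 FPKM with metformin and 32.7 FPKM with PBS. TCF3, which encodes the E-box binding E2A proteins, averaged 9.17 ± 1.57 FPKM with metformin and 12.7 ± 1.53 FPKM with PBS, and its call (limma adjusted p = 0.0275) was lost without metformin replicate 1 (0.0813), metformin replicate 2 (0.0810), PBS replicate 2 (0.0849) or PBS replicate 3 (0.0752).

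Structural genes of mesenchymal cells beyond the members were split. Of 35 listed, 19 were tested, 6 called higher and 7 lower (68.4%, against 56.2% of all tested genes), the median being 0.02 on the log2 scale. COL6A2, a chain of collagen VI, rose 4.38-fold, to 16.1 ± 0.276 FPKM with metformin against 3.68 ± 0.610 FPKM with PBS, and AXL, a receptor tyrosine kinase, 1.97-fold. SPARC, a matricellular protein, fell to 46.3 ± 1.16 FPKM with metformin, against 99.9 ± 1.70 FPKM with PBS, and MYL9, a myosin light chain of contractile cells, fell to 0.457 ± 0.0503 FPKM, against 2.61 ± 0.288 FPKM with PBS. In bulk libraries a lower share of cells that express a gene and less of its RNA per cell cannot be told apart.

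The list of partial transition genes of head and neck carcinoma was likewise divided, with 35 of 40 tested and a median log2 change of 0.09. Calls were 13 higher and 10 lower (65.7%, against 56.2% of all tested genes). LGALS1, galectin-1, fell 7.44-fold, to 3.09 ± 0.761 FPKM with metformin against 23.0 ± 2.49 FPKM with PBS. CAV1, caveolin-1, fell to 115 ± 1.91 FPKM, against 344 ± 10.8 FPKM with PBS, and PDPN, podoplanin, to 3.61 ± 0.380 FPKM, against 9.96 ± 3.88 FPKM with PBS. SERPINE2, a protease inhibitor of the pericellular space, rose 3.87-fold (limma adjusted p = 1.87e-05). Genes of this list thus changed in both directions, as the matrix members TNC and FN1 did.

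Receptors through which cells hold fibronectin and tenascin-C gave 4 higher and 5 lower calls among 13 tested of 18 listed. This was 69.2%, against 56.2% of all tested genes, with a median log2 change of -0.05. ITGA5, whose product pairs with integrin beta-1 as the main fibronectin receptor, fell to 4.35 ± 0.265 FPKM with metformin, against 7.73 ± 1.17 FPKM with PBS (limma adjusted p = 0.00172), in the same direction as FN1. SDC1, syndecan-1, fell 2.02-fold. ITGB5, a partner of integrin alpha-V, rose 2.60-fold, and TLR4, an innate immune receptor that tenascin-C can engage, 2.65-fold, to 5.12 ± 0.143 FPKM with metformin against 1.93 ± 0.10 FPKM with PBS.

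**Figure D4:**
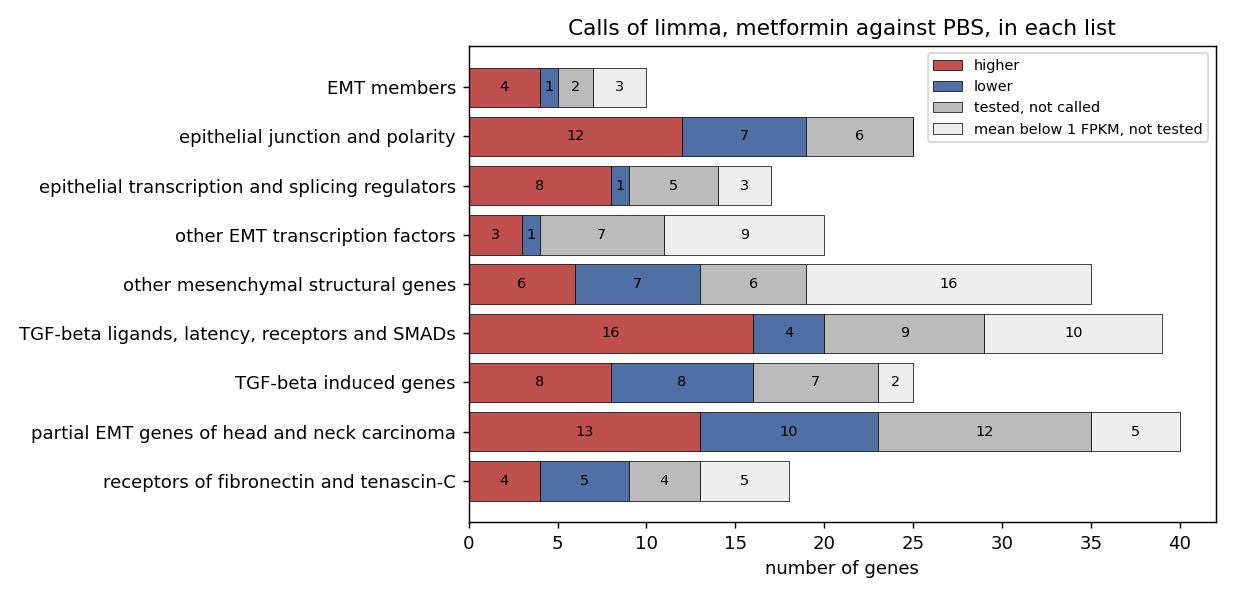
Number of genes called higher, called lower, tested without a call, or below the filter of 1 FPKM, for the members and for 8 lists of related genes. Every list holds both higher and lower calls, and the members and the 2 lists of regulators have 1 lower call each.

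Markers of other cell types were at low levels. The 4 of them that reached the filter of 1 FPKM were called, 2 higher and 2 lower, beside 56.2% of all tested genes. The summed level of 10 fibroblast markers was 2.51 to 2.74 FPKM with metformin and 1.54 to 2.34 FPKM with PBS, led by COL1A1, the only marker tested, which rose 1.75-fold. COL1A1 had 2.20 to 2.63 FPKM with metformin and 1.14 to 1.54 FPKM with PBS, while COL1A2 stayed at or below 0.0226 FPKM with metformin and 0.249 FPKM with PBS. The 6 endothelial markers summed to 2.01 to 2.34 FPKM with metformin and 5.94 to 6.87 FPKM with PBS, nearly all of it CDH5, which fell 3.04-fold, while KDR was listed at 0 throughout. The 9 leukocyte markers summed to 4.54 to 6.57 FPKM with metformin and 5.97 to 7.46 FPKM with PBS, ranges that overlap, led by CD68, which shares 1789 exon bases with AC016876.2 on its strand and rose 1.55-fold, and CD14, which fell 3.93-fold. The 12 squamous markers summed to 846 to 872 FPKM with metformin and 1470 to 1550 FPKM with PBS. Of them 2 were called higher and 8 lower (83.3%, against 56.2% of all tested genes). The strongest falls were those of the basal keratin genes KRT14 and KRT5. KRT14 fell 19.1-fold, to 12.9 ± 0.275 FPKM with metformin against 246 ± 17.4 FPKM with PBS. KRT5 fell 6.77-fold, to 52.4 ± 4.19 FPKM with metformin against 355 ± 6.04 FPKM with PBS. The part of these markers in the changes of TNC, TGFB2 and FN1 was not tested.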

How the data were processed

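The study sequenced mRNA of 6 CAL27 libraries, 3 per group. The files deposited by the authors hold FPKM, per the file headers, and the build was GRCh38, per the submitters' processing notes. Aligner, quantifier, strandedness and annotation version: not given in the sources used here. Because FPKM divides by each library's mapped total, a large change in abundant genes moves every other value. Read counts were not used here, and depth was estimated from the steps between low values of single-transcript genes. Only 48.2% to 51.6% of these values lay close to a whole number of steps, so fragment numbers are rough.

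Symbols came from GENCODE release 29 by Ensembl identifier without version, which named 57980 of 58243 genes. All 10 members matched. Genes averaging 1 FPKM or more were put on the scale log2(FPKM + 1), and limma 3.58.1 (R 4.3.3) fitted them with an intensity trend and group as the only term, two-sided, with Benjamini-Hochberg adjustment over 13437 genes and a threshold of 0.05. Members below that level were compared by an exact permutation test. The fit was run on simulated data in which few genes or none changed. Far more genes were called here, so its error rates in these data were not tested. Tables were made with pandas 2.3.3 and NumPy 2.4.6 under Python 3.11.15, figures with matplotlib 3.10.9.

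The members and the 12 other lists were chosen with earlier results of these data known, so no list is tested and counts are read beside the share of all genes called. Beside the members, the text names the 4 largest called changes of each list (2 for cell type markers) and 16 partners, paralogs and antagonists fixed by name, of which 1 is not reported here. Other genes are named only where they overlap these, were listed at 0 or were chosen after their values were seen. RefSeq promoters were found for 6 of the 10 members. The alternatives were other pseudocounts, level filters, scalings and limma settings, a replicate block, and leaving out each library in turn.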

Additional observations from a re-analysis of the deposited data

How the results depend on the processing

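The members called higher numbered 3 or 4 under all 17 alternatives. TNC, TGFB2 and CDH1 were called in every one, with log2 changes of 1.57 to 1.74, 1.99 to 2.27 and 0.18 to 0.32, and SNAI2 was the member that dropped out. The members called lower numbered 2 with quantile scaling, where TWIST1 was added, and 0 to 1 when a library was left out. Over all genes, leaving out a library gave 3641 to 3817 higher and 3022 to 3090 lower calls, and a filter of at least 5 FPKM, which tests fewer genes, gave 2401 higher calls. Changes near 0 turned in sign: CDH2 with quantile scaling (-0.0264) and between -0.0021 and 0.16 when a library was left out, TGFBR1 when rescaled to a fixed sum (0.0050) and between -0.10 and 0.11 when a library was left out, and SMAD3 with median-of-ratios scaling (-0.0412) and between -0.0134 and 0.0517 when a library was left out. Of 919 results of named genes under the alternatives, 880 kept their direction and side of the threshold, 30 lost the call, 2 gained it and 7 turned. The cause of these shifts was not tested.

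Same-numbered libraries did not deviate together (correlations -0.000355, 0.0304 and -0.0105), so the numbers were not taken to pair them. With a replicate block there were 3940 higher and 3199 lower calls, and 3 members higher and 1 lower, SNAI2 having an adjusted p of 0.0921. VIM, ZEB1 and SNAI1 are limited by depth, with at most 16.3 estimated fragments in any library. TWIST1 is limited in the same way, with an estimated 10.5 to 20.9 fragments per library.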

Other observations

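Several junction genes had a library at odds with others of its group, and were chosen after their values were seen. CLDN4, a tight junction claudin, had 2.05, 30.1 and 0.219 FPKM in the metformin libraries and 0.215, 0.481 and 0.0553 FPKM in the PBS libraries. CTNND1, the p120 catenin that stabilises E-cadherin, had 39.1, 42.1 and 38.8 FPKM with metformin and 25.1, 48.4 and 23.0 FPKM with PBS. F11R, the junctional adhesion molecule A, had 26.7, 29.6 and 10.7 FPKM with metformin and 12.5, 31.2 and 32.9 FPKM with PBS. None of these was called. Metformin replicate 2 stood apart in CLDN4, PBS replicate 2 in CTNND1, and both metformin replicate 3 and PBS replicate 1 in F11R. Outside the junction genes, and also chosen with their values in view, metformin replicate 2 stood apart in KLF4, KLF5, ITGA6 and EGFR. Among the metformin libraries, KLF5 had 39.3, 20.8 and 38.5 FPKM, ITGA6 111, 78.5 and 113 FPKM, and EGFR 173, 113 and 178 FPKM. In ITGAV metformin replicate 3 stood apart, with 32.6, 32.5 and 22.7 FPKM in the metformin libraries.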
